A study of Canis lupus familiaris with 30 samples.

Results

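The glucocorticoid receptor gene NR3C1 and genes known to respond to glucocorticoids were described in the lymph nodes of dogs with lymphoma, before and during a chemotherapy that contains the glucocorticoid prednisone. The members were 7 genes chosen by name: NR3C1, FKBP5, TSC22D3, DUSP1, ZBTB16, PER1 and KLF9. Of these, 5 could be paired with one of the 32704 gene IDs of the deposited tables, and PER1 and KLF9 were left out because no gene ID was found for them in the tables used here. RNA had been sequenced from fine needle aspirates of enlarged lymph nodes of 15 dogs, once before treatment (initial) and once 6 weeks into CHOP (cyclophosphamide, doxorubicin, vincristine and prednisone), which gave 30 libraries. Immunophenotype labels were B-Cell for 7 dogs, T-Cell for 3 dogs and Unknown for 5 dogs, who are called untyped here. No dog went untreated, so that time and treatment cannot be told apart. A single injection of prednisone before enrolment was permitted by the study, and which dogs had received one, or how long before sampling the last dose was given, is not given in the sources used here.

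The glucocorticoid receptor is a transcription factor that waits in the cytoplasm with heat shock proteins and immunophilins, enters the nucleus when it binds a steroid, and raises or lowers the transcription of its target genes. Some targets feed back on the pathway: FKBP5 encodes an immunophilin that lowers the affinity of the receptor for its hormone. TSC22D3 encodes GILZ, a leucine zipper protein that carries anti-inflammatory effects of glucocorticoids, and DUSP1 encodes a phosphatase that switches off MAP kinases. ZBTB16 encodes PLZF, a zinc finger transcription factor that is also needed for natural killer T cells and other innate-like lymphocytes. In lymphoid cells the receptor can set off cell death, which is why prednisone is part of lymphoma treatment.

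Levels are given as FPKM, read counts scaled by transcript length and sequencing depth, so that genes can be compared with each other. Total counts were 4318394 to 43413353 per library, lowest in dog 036 at 6 weeks. The number of genes above 1 FPKM was 11591 to 21297 per library, and the sum of all FPKM values was 769269 to 2253173. In 6 dogs (024, 027, 028, 029, 030 and 035) the deposited counts did not follow the FPKM of the same gene IDs (Spearman's rho across genes 0.087 to 0.117), whereas in the other 9 dogs they did (0.88 to 0.98), so counts were used only for those 9 dogs. In 2 dogs some markers went against the label at the initial timepoint. For dog 029, labelled B-Cell, the T-cell marker score was 5.88, beside 1.79 to 3.44 in the other B-Cell dogs. This score is the mean log2(FPKM+1) of CD3E, CD3D, CD5, CD28, LCK and ZAP70. The B-cell score of dog 029 (PAX5 and CD22) was 4.89, beside 5.35 to 6.64, so both scores lay outside the range of the other B-Cell dogs. Dog 038, labelled T-Cell, had a T-cell score of 2.56 and a B-cell score of 6.09, beside T-cell scores of 6.07 and 6.33 and B-cell scores of 1.74 and 0.73 in the other T-Cell dogs, 028 and 036. For the members tested, comparisons that involve the T-Cell label are therefore given with and without dogs 029 and 038. Those of the other listed genes are given with these dogs only. In bulk tissue, fewer cells of a type and less RNA per cell cannot be told apart.

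The 5 genes lay at very different levels. FKBP5 was the most abundant, with a median of 121 FPKM at the initial timepoint (lowest 71.0, highest 384), which placed it at a median percentile of 97.7 among all gene IDs. NR3C1 followed with a median of 9.24 FPKM (4.15 to 44.9), TSC22D3 with 4.58 FPKM (2.18 to 18.7) and DUSP1 with 1.63 FPKM (0.394 to 4.25). ZBTB16 was near the floor, with a median of 0.171 FPKM, a highest value of 5.05 in dog 029 and a listed value of 0 in dog 035. FKBP5 did not overlap with any of the other 4 genes at the initial timepoint, while the ranges of NR3C1, TSC22D3 and DUSP1 overlapped each other. The same order of medians was found at 6 weeks, at 119, 10.97, 6.46, 3.03 and 0.867 FPKM.

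**Figure D1:**
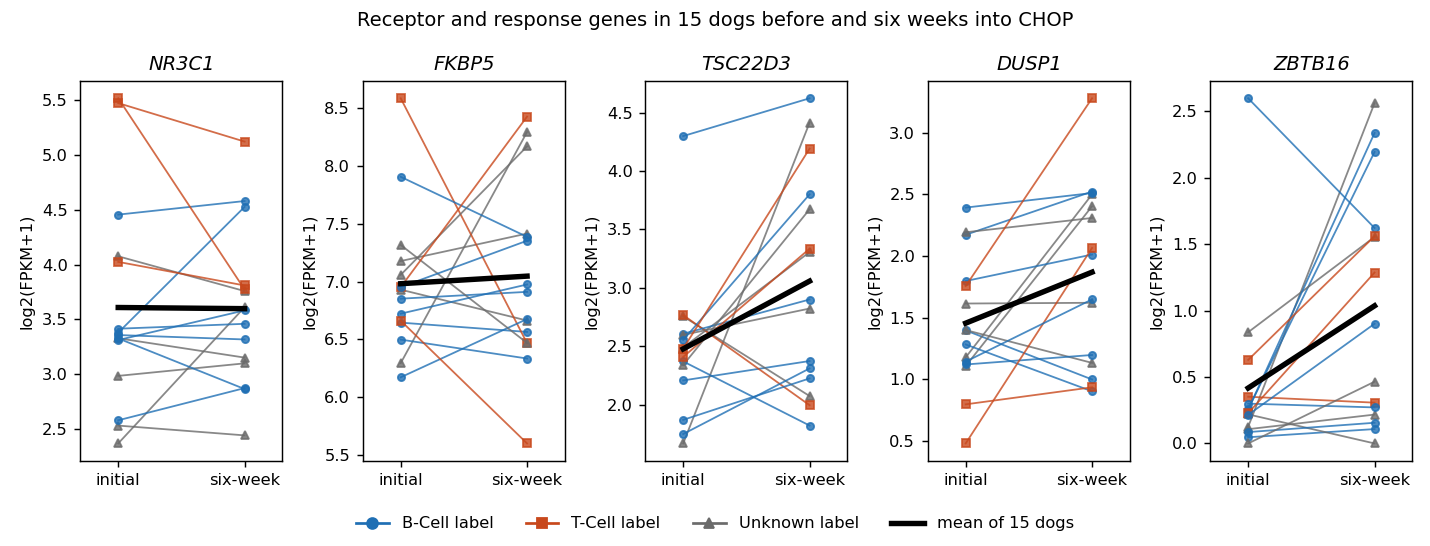
Levels of the 5 genes as log2(FPKM+1) in the initial and six-week libraries; each thin line joins the 2 libraries of 1 dog, coloured by immunophenotype label, and the black line joins the means of 15 dogs. The vertical axes differ between genes. TSC22D3, DUSP1 and ZBTB16 lay higher at 6 weeks in 12, 12 and 11 of 15 dogs, and the means of NR3C1 and FKBP5 moved by -0.01 and 0.07.

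The question whether the receptor gene itself differed between the labelled immunophenotypes was asked at each timepoint. At the initial timepoint, NR3C1 was at 43.5, 44.9 and 15.3 FPKM in T-Cell dogs 028, 036 and 038. In the 7 B-Cell dogs it ranged from 4.97 to 20.96 FPKM with a median of 9.24, and the untyped dogs 024, 025, 026, 031_032 and 035 had 4.77, 4.15, 6.91, 9.03 and 15.9 FPKM. The 2 T-Cell dogs with high T-cell marker scores thus had more NR3C1 than each of the other 13 dogs, and the third highest value belonged to dog 029, the B-Cell dog with a high T-cell score. The ranges of the T-Cell and B-Cell labels overlapped only through dogs 029 and 038: the other 6 B-Cell dogs had at most 9.66 FPKM. The difference between T-Cell and B-Cell dogs was 1.60 on the log2(FPKM+1) scale (SE 0.418, 95% interval 0.72 to 2.49) and did not pass, at a limma adjusted p of 0.0711. Of all 14257 genes tested in that comparison, 49 passed (0.344%). Without dogs 029 and 038, the NR3C1 difference was 2.27 (SE 0.373), at a limma adjusted p of 0.000993, in a comparison in which 24.2% of genes passed (3446 of 14257). The call also passed without dog 029 alone (1.78, limma adjusted p 0.0213, with 9.12% of genes past the threshold) or without dog 038 alone (2.095, limma adjusted p 0.0055, with 16.1%). Since these dogs were set apart by T-cell and B-cell markers, the larger difference describes libraries sorted by those markers as well as by label.

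The same comparison was made in the six-week libraries. NR3C1 was at 33.9, 12.7 and 13.02 FPKM in dogs 028, 036 and 038, and B-Cell dogs ranged from 6.28 to 22.9 FPKM. Dog 034, a B-Cell dog whose T-cell score had gone from 3.44 to 5.64, now had 22.1 FPKM. The labels overlapped, and the difference was 0.64 (SE 0.430, 95% interval -0.28 to 1.55, limma adjusted p 0.653). Without dogs 029 and 038 it was 1.01 (SE 0.476, 95% interval -0.01 to 2.03, limma adjusted p 0.427), and without dog 028 it was 0.19 (limma adjusted p 0.903). In this comparison 0 of 14257 genes passed with limma (0%), and 1245 had an unadjusted p under 0.05. Dogs 028, 029 and 034, with T-cell scores of 6.16, 6.16 and 5.64, held the 3 highest NR3C1 values, whereas dog 025, with a score of 5.69, had 11.2 FPKM.

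**Figure D2:**
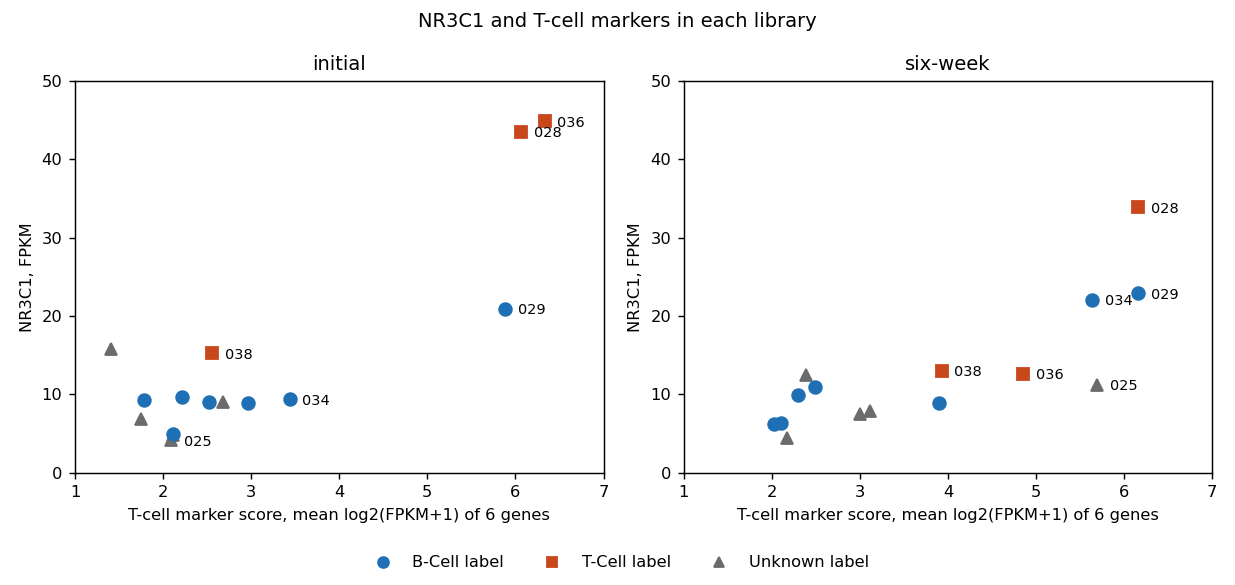
NR3C1 in FPKM against the T-cell marker score (mean log2(FPKM+1) of 6 genes) in the 15 initial and 15 six-week libraries; each point is 1 library, coloured by label. Dogs 028 and 036 stand at 43.5 and 44.9 FPKM at the initial timepoint, dog 029 at 20.96, and dog 036 is down to 12.7 FPKM at 6 weeks.

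FKBP5, DUSP1 and TSC22D3 were compared between the labels in the same fits. FKBP5 was at 384, 123 and 100 FPKM in dogs 028, 036 and 038 before treatment, and from 71.0 to 239 FPKM in B-Cell dogs, where dog 029 was again the highest. The difference of 0.58 (SE 0.394, limma adjusted p 0.397) did not pass. Without dogs 029 and 038 it was 1.13 (SE 0.366, limma adjusted p 0.0394), in the fit in which 24.2% of all genes passed. As for NR3C1, those libraries were sorted by markers as well as by label. Of the 2 T-Cell dogs left, only dog 028, at 384 FPKM, lay above the 6 B-Cell dogs left. Dog 036 had 122.74 FPKM, beside 122.76 FPKM in B-Cell dog 037. With dogs 029 and 038 kept, leaving out 1 dog at a time gave FKBP5 differences of -0.0144 to 0.95. DUSP1 had the opposite sign, -0.60 (SE 0.352, limma adjusted p 0.321), and TSC22D3 differed by 0.03 (SE 0.422, limma adjusted p 0.974). These were -0.95 and 0.40 without dogs 029 and 038, with limma adjusted p of 0.089 and 0.375. At 6 weeks the differences of FKBP5, DUSP1 and TSC22D3 were -0.05, 0.41 and 0.31, with limma adjusted p of 0.978, 0.803 and 0.882. They were 0.65, -0.13 and 0.52 without dogs 029 and 038, with limma adjusted p of 0.669, 0.94 and 0.78.

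The change from the initial to the six-week library was tested within dogs. Over all 15 dogs, limma on FPKM called 0 of 14257 genes (0%); before adjustment, 1823 had a p under 0.05. The median change over all these genes was -0.01 on the log2(FPKM+1) scale. None of the 4 members tested passed, and ZBTB16 fell just under the filter of a mean of 1 FPKM. In the counts of 9 dogs, edgeR called 0 of 16269 genes (0%), although 4137 had an unadjusted p under 0.05. DESeq2 called 3832 of 31599 (12.1%).

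NR3C1 had a mean change near 0. Its level was higher at 6 weeks in 7 dogs and lower in 8, and the mean change was -0.01 (SE 0.167, 95% interval -0.36 to 0.34, limma adjusted p 0.988), with the opposite sign after rescaling by median of ratios (0.01). Single dogs moved far in both directions. The largest fall was in T-Cell dog 036, from 44.9 to 12.7 FPKM, and the largest rises were in untyped dog 025, from 4.15 to 11.2 FPKM, and in B-Cell dog 034, from 9.40 to 22.1 FPKM. In the same dogs the T-cell score went from 6.33 to 4.85, from 2.09 to 5.69 and from 3.44 to 5.64. Across the 15 dogs, the change of NR3C1 and the change of the T-cell score had a Pearson's r of 0.74 (permutation p 0.00226, adjusted over 35 relations 0.0198) and a Spearman's rho of 0.43 (permutation p 0.112, adjusted 0.302). Without dogs 025 and 034, the 2 farthest from the median score change, r was 0.49, so the relation rested in part on these dogs. With the B-cell score r was -0.74 (permutation p 0.0062, adjusted 0.0362) and Spearman's rho was -0.27 (permutation p 0.329, adjusted 0.58). Without dogs 036 and 025, the 2 farthest in that score, r was -0.11.

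In the T-Cell dogs NR3C1 was lower at 6 weeks in 3 of 3, at 0.779, 0.282 and 0.852 times the initial level in dogs 028, 036 and 038. The mean change was -0.77 (SE 0.332, limma adjusted p 0.21) and did not pass. It was -0.28 without dog 036, -0.98 without dog 028 and -1.05 without dog 038, with limma adjusted p of 0.819, 0.126 and 0.238. The 7 B-Cell dogs had a mean change of 0.20 (SE 0.217, limma adjusted p 0.936), with 5 dogs higher, and the 5 untyped dogs 0.16 (SE 0.257, limma adjusted p 0.958), with 2 higher. The difference between the change in T-Cell and B-Cell dogs was -0.97 (SE 0.397, 95% interval -1.81 to -0.13, limma adjusted p 0.283), so a difference between labels was not established. Leaving out 1 dog gave -1.25 to -0.48, the smallest size without dog 036. Without dogs 029 and 038 the changes were -1.05 in T-Cell and 0.21 in B-Cell dogs, and their difference was -1.26 (limma adjusted p 0.341). With all dogs in the fit, limma called 0 of 14257 genes (0%) in each of these contrasts. At an unadjusted p under 0.05 there were 548 genes in B-Cell dogs, 2862 in T-Cell dogs and 650 in untyped dogs. For the difference between T-Cell and B-Cell dogs there were 2187. Without dog 028, limma called 1491 genes (10.5%) in T-Cell dogs and 612 for the difference between these labels.

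FKBP5, the immunophilin gene, differed in direction among the T-Cell dogs. It fell from 384 to 87.3 FPKM in dog 028 and from 100 to 47.4 FPKM in dog 038, and rose from 123 to 344 FPKM in dog 036. These dogs therefore shared no direction, and their mean change was -0.57 (SE 0.530, limma adjusted p 0.555), or -0.32 (limma adjusted p 0.819) without dogs 029 and 038. In untyped dogs FPKM went from 144 to 170 in dog 024, from 77.4 to 313 in dog 025, from 121 to 100.2 in dog 026, from 158 to 87.5 in dog 031_032 and from 132 to 287 in dog 035. The B-Cell dogs stayed closest to their own start, with six-week levels of 0.696 to 1.42 times the initial ones. Over all dogs, 8 were higher and 7 lower, and the mean change was 0.07 (SE 0.240, 95% interval -0.44 to 0.57, limma adjusted p 0.934). The sign turned when FPKM were rescaled to TPM (-0.05), and the interval reaches 0.57 in log2 units, so that FKBP5 is not shown to be unchanged.

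TSC22D3, which encodes GILZ, was higher at 6 weeks in 12 of 15 dogs. The median went from 4.58 to 6.46 FPKM, and 5 dogs at least doubled. In untyped dogs FPKM went from 5.75 to 3.21 in dog 024, from 2.18 to 20.3 in dog 025, from 4.61 to 8.89 in dog 026, from 5.05 to 6.07 in dog 031_032 and from 4.06 to 11.7 in dog 035. In the T-Cell dogs it went from 5.80 to 2.99 in dog 028, from 4.58 to 17.3 in dog 036 and from 4.31 to 9.09 in dog 038. The B-Cell dogs had 2.36 to 18.7 FPKM at the initial timepoint (median 4.17) and 2.53 to 23.6 FPKM at 6 weeks (median 4.18), with dog 029 the highest at both. The initial and six-week ranges overlapped, and the median change within dogs was 0.35 on the log2 scale, with larger changes in some dogs. The mean change was 0.58 (SE 0.223, 95% interval 0.11 to 1.05), with a limma adjusted p of 0.326. It was 0.34 (SE 0.334) in B-Cell dogs, 0.62 (SE 0.510) in T-Cell dogs and 0.89 (SE 0.395) in untyped dogs, with limma adjusted p of 0.935, 0.498 and 0.951, and the difference between T-Cell and B-Cell dogs was 0.28 (SE 0.609, limma adjusted p 0.833). Without dogs 029 and 038 the change in T-Cell dogs was 0.47 and the difference 0.12, with limma adjusted p of 0.723 and 0.946.

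The dogs split by the state of their count columns. In the 9 dogs whose counts followed their FPKM, TSC22D3 was higher at 6 weeks in 9 of 9, with a mean change of 0.97 ± 0.833 (SD, n = 9) and a limma adjusted p of 0.222. In the other 6 dogs it was higher in 3 and lower in 3, with a mean change of -0.01 ± 0.816 (SD, n = 6). The mean change was thus positive in the first set and near 0 in the second, and the difference between the sets was not tested. The paper's cluster groups with longer and shorter progression-free survival also held 9 and 6 dogs, with the same number of each label. Which dogs formed them is not given in the sources used here. Whether the sets are those groups was not tested, so count state and cluster group cannot be told apart. On 212 to 669 reads per library for this gene in the 9 dogs, edgeR gave a log2 fold change of 1.04 (adjusted p 0.0816) and DESeq2 1.11 (adjusted p 0.00349). DESeq2 called TSC22D3 in a comparison in which 12.1% of all genes passed. Without dogs 025, 033 and 036, whose six-week libraries had the largest FPKM sums, the mean change in FPKM was 0.32 (limma adjusted p 0.55).

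Markers of other cells and of dividing cells moved in the same dogs. The summed FPKM of 3 of 7 listed NK and cytotoxic markers (GZMA, GZMK and KLRD1) was 1.56 to 44.6 before treatment and 1.12 to 65.5 at 6 weeks, and was higher at 6 weeks in 9 of 15 dogs. That of 2 of 4 neutrophil markers (S100A8 and CSF3R) was 0.111 to 23.5 and then 0.416 to 155, that of 4 of 8 macrophage and monocyte markers was 7.21 to 98.4 and then 4.96 to 305, and both were higher in 9 of 15 dogs. That of 7 of 8 mitosis markers was 127 to 875 and then 86.8 to 859, and was higher at 6 weeks in only 3 dogs. The scores in the relations below are means of log2(FPKM+1) and not sums, and the mitosis score was higher in 5 dogs and lower in 10. Of the NK, neutrophil, macrophage and mitosis markers, those listed at 0 in the initial libraries were GZMA and GZMK in 1 each and S100A8 in 2. Across the 15 dogs, the change of TSC22D3 went with the change of the NK score at a Pearson's r of 0.80 (permutation p 0.0002, adjusted over 35 relations 0.007) and a Spearman's rho of 0.66 (permutation p 0.00919, adjusted 0.107), and r was 0.70 without the 2 dogs farthest from the median. With the neutrophil score r was 0.76 (permutation p 0.0011, adjusted 0.0128), with the macrophage score 0.68 (permutation p 0.00467, adjusted 0.0327) and with the mitosis score -0.64 (permutation p 0.0102, adjusted 0.0446). These became 0.54, 0.35 and -0.52 without the 2 farthest dogs. In the same order, Spearman's rho was 0.68, 0.53 and -0.60, with permutation p adjusted to 0.107, 0.224 and 0.155. By rank, none of these relations of TSC22D3 passed. With the NK score as a covariate in the fit, the mean change of TSC22D3 was 0.08 (SE 0.178). It was 0.17, 0.24, 0.25 and 0.35 with the mitosis, macrophage, neutrophil and T-cell score.

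**Figure D3:**
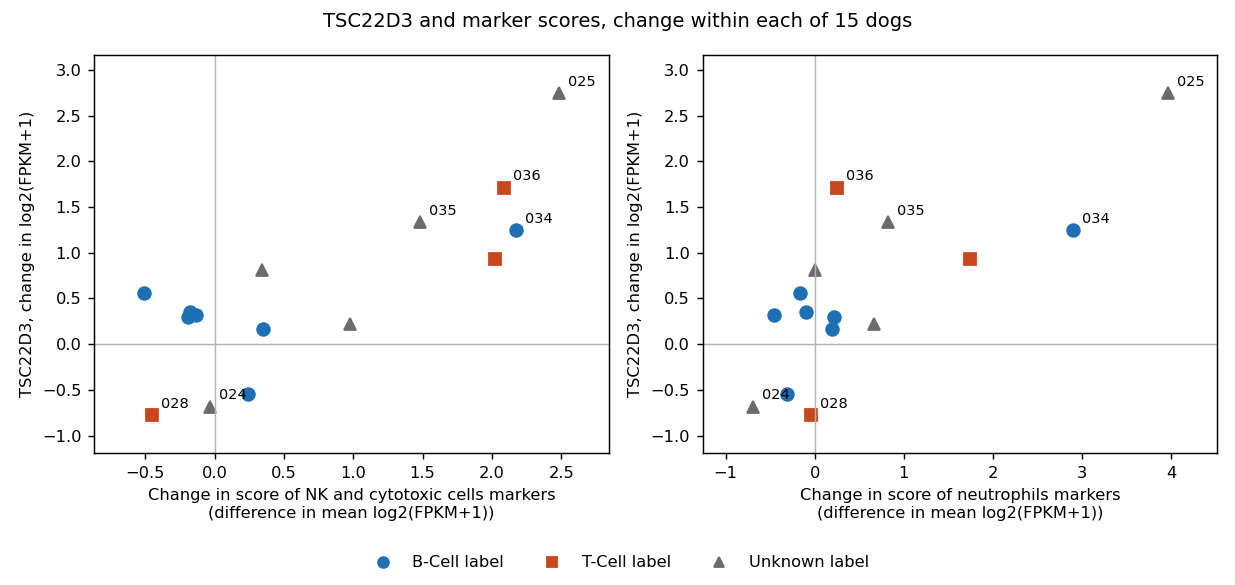
Change of TSC22D3 within each of 15 dogs, in log2(FPKM+1), against the change of the NK and cytotoxic marker score (left) and of the neutrophil marker score (right), coloured by label. Dogs 025, 034, 035 and 036 have large rises in TSC22D3 and in the NK score (r 0.80 across dogs), and dogs 024 and 028 lie below 0 on both axes.

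DUSP1, the MAP kinase phosphatase gene, was higher at 6 weeks in 12 of 15 dogs, but by little in most of them: the median ratio was 1.23. The larger rises were in dog 036, from 0.394 to 3.18 FPKM, in dog 038, from 2.37 to 8.70 FPKM, in dog 025, from 1.15 to 4.29 FPKM, and in dog 026, from 1.26 to 4.65 FPKM. Dog 028, the remaining T-Cell dog, went from 0.736 to 0.911 FPKM. B-Cell dogs ranged from 1.17 to 4.25 FPKM before treatment and from 0.868 to 4.74 FPKM at 6 weeks, and no B-Cell dog doubled. The mean change was 0.41 (SE 0.171, limma adjusted p 0.342) over all dogs, 1.08 (SE 0.342, limma adjusted p 0.134) in T-Cell dogs and 0.07 (SE 0.224, limma adjusted p 0.969) in B-Cell dogs. The difference between these labels was 1.01 (SE 0.408, limma adjusted p 0.278) and did not pass. Without dog 028 the mean change of the other T-Cell dogs was 1.55 (limma adjusted p 0.0215), in a fit in which 10.5% of all genes passed. With dogs 029 and 038 left out it was 0.86 (limma adjusted p 0.336), and the difference from B-Cell dogs was 0.82 (limma adjusted p 0.442). In the 9 dogs with usable counts, at 19 to 340 reads per library, edgeR gave 0.85 (adjusted p 0.176) and DESeq2 0.92 (adjusted p 0.0623).

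ZBTB16, which encodes PLZF, had the lowest level and the largest ratios. It went from 0.0908 to 4.90 FPKM in dog 025, from 0.192 to 4.05 FPKM in dog 034 and from 0.196 to 3.57 FPKM in dog 030. In dog 029 it went the other way, from 5.05 to 2.08 FPKM, and in dog 024 from 0.164 FPKM to a listed 0. In the T-Cell dogs 028, 036 and 038 it went from 0.276 to 0.237, from 0.171 to 1.44 and from 0.546 to 1.95 FPKM. It was higher at 6 weeks in 11 of 15 dogs. In the fit with no filter on low values, the mean change was 0.62 (SE 0.226, limma adjusted p 0.0821), and 9.54% of all genes passed (3054 of 32008). Of these 3054 genes 3017 were higher at 6 weeks. Without dog 029 the change was 0.73 (limma adjusted p 0.0449), with 9.64% of genes past the threshold. It did not pass in the other 14 fits that left out 1 dog (limma adjusted p up to 0.164). DESeq2 on 2 to 98 reads per library in 9 dogs gave 2.22 (adjusted p 0.00133), in the comparison in which 12.1% of genes passed. The change of ZBTB16 went with that of the neutrophil score at a Pearson's r of 0.80 (permutation p 0.00058, adjusted 0.0102) and a Spearman's rho of 0.83 (permutation p 0.00032, adjusted 0.0112), and r was 0.53 without the 2 farthest dogs. With the NK, mitosis, neutrophil, macrophage or T-cell score as covariate, the mean change was 0.21, 0.26, 0.27, 0.31 or 0.41, and without dogs 025, 033 and 036 it was 0.48.

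**Figure D4:**
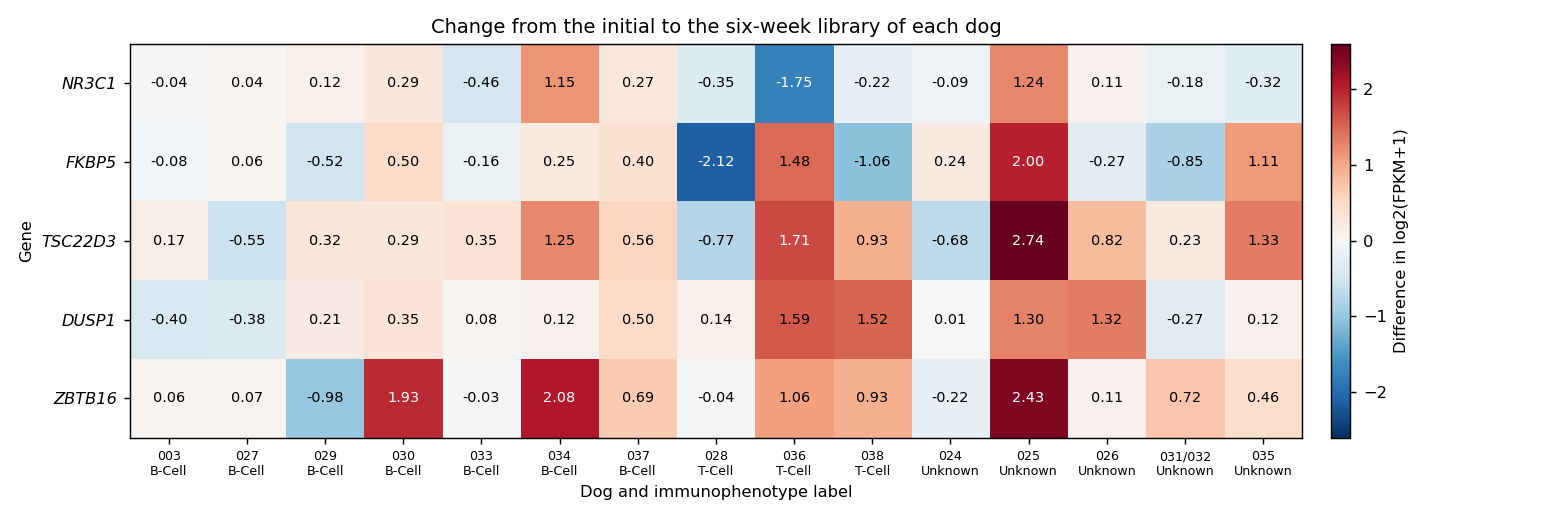
Change of each of the 5 genes from the initial to the six-week library of each dog, as the difference in log2(FPKM+1), with dogs ordered by label; red is higher at 6 weeks and blue lower. Dogs 025, 030, 034 and 037 are red in 5 of 5 genes, and dog 036 joins a fall of 1.75 in NR3C1 to rises in the other 4 genes.

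Read by dog, the 5 genes did not move as a block. All 5 were higher at 6 weeks in 4 dogs (untyped dog 025 and B-Cell dogs 030, 034 and 037), 4 were higher in 3 dogs, and in 8 dogs 3 or fewer were higher. Dog 025 had large rises in each gene, from 1.24 for NR3C1 to 2.74 for TSC22D3 in log2 units. In dog 036 the receptor gene fell while FKBP5, TSC22D3, DUSP1 and ZBTB16 all rose by more than 1. The markers of dog 036 moved as well: its B-cell score went from 0.73 to 4.25 and its macrophage score from 1.49 to 4.26. Its mitosis score went from 5.44 to 4.19, and its 2 libraries correlated at only 0.11 as deviations from the timepoint means. The part of these shifts in its gene changes was not tested. In dog 028 the receptor stayed high, and FKBP5 and TSC22D3 fell by 2.12 and 0.77. As a description over the 15 within-dog changes, which share libraries and depth, TSC22D3 correlated with FKBP5 at a Pearson's r of 0.70, with ZBTB16 and DUSP1 at 0.66 each, and with NR3C1 at 0.20. FKBP5 and NR3C1 had an r of 0.12.

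**Figure D5:**
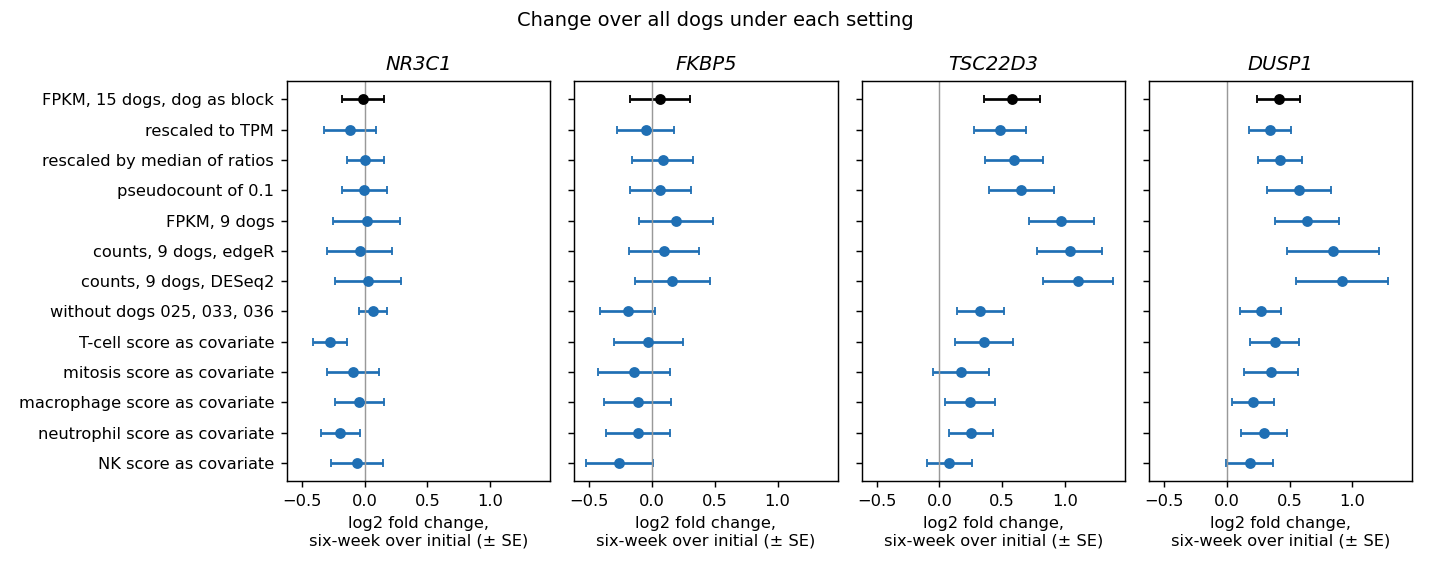
Mean change of 4 genes over dogs, as log2 fold change of six-week over initial with its standard error, under 13 ways of processing; the black point is limma on the FPKM of 15 dogs with the dog as block. TSC22D3 ranges from 0.08 with the NK score as covariate to 1.11 with DESeq2 on the counts of 9 dogs, and NR3C1 stays between -0.28 and 0.07.

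Other genes of the pathway were taken from lists of receptor partners and targets, and none of those tested passed in any comparison. Which of them had a gene ID depended in part on results of these samples. Counts of positive or negative changes in these lists are therefore descriptions and not independent evidence, also where set beside all genes. Of 22 further genes known to be induced by glucocorticoids, 7 had a gene ID and passed the filter, and all 7 had a positive mean change over all dogs, with a median of 0.40 beside -0.01 for all genes. They were IL7R (1.22, SE 0.461), the receptor chain for interleukin 7, IL1R2 (0.81, SE 0.302), a decoy receptor for interleukin 1, PIK3IP1 (0.53), TXNIP (0.40), NFKBIA (0.35), the inhibitor of NF-kB, ZFP36 (0.28) and IRS2 (0.04), with limma adjusted p of 0.316 or more. With FPKM rescaled to TPM 6 of the 7 were positive, and with the NK score as covariate 5 of the 7, with a median of 0.06. In the T-Cell dogs 5 of the 7 were positive, with NFKBIA at 1.15 (SE 0.334, limma adjusted p 0.124). In B-Cell dogs 5 of the 7 were positive and NFKBIA was at -0.02. Over all dogs, the tested T-cell, NK, macrophage, neutrophil and stroma markers were also all positive. Their medians were 0.70, 0.66, 0.66, 0.60 and 0.31. The tested B-cell and mitosis markers were all negative, with medians of -0.29 and -0.50. A shared positive direction was therefore not particular to the induced genes. Of 12 genes known to be repressed, 3 could be tested: ICAM1 (0.41) and TNF (0.22), which encode an adhesion molecule and an inflammatory cytokine, had a positive mean change and MYC (-0.05) did not.

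The receptor's chaperones had negative mean changes over all dogs, none of them past the test. The list holds 9 genes with the mineralocorticoid receptor, of which 6 were tested and 5 were negative, or 3 with the NK score as covariate: FKBP4 (-0.37, SE 0.148), the immunophilin that carries the receptor to the nucleus, HSPA8 (-0.29), HSP90AA1 (-0.21), STIP1 (-0.20) and BAG1 (-0.02), with limma adjusted p of 0.331 or more. NR3C2, the mineralocorticoid receptor gene, was at 0.48 (SE 0.203, limma adjusted p 0.344). Of the coregulators NCOA1, NCOA3 and CREBBP (3 of 8 listed), the mean changes lay between -0.08 and 0.02 over all dogs and between -0.95 and -0.40 in T-Cell dogs, the label in which NR3C1 was lower in 3 of 3. The clock genes, some of which are glucocorticoid targets, had 4 of 5 positive with CIART at 0.39 (SE 0.114, limma adjusted p 0.298), and EGR1, the only immediate early gene tested of 10, was at 0.38 (SE 0.149, limma adjusted p 0.33). Between T-Cell and B-Cell dogs at the initial timepoint, 0 of these 25 genes passed with limma, where 0.344% of all genes passed. The smallest adjusted p was that of PIK3IP1 (difference 2.28, SE 0.674, limma adjusted p 0.0861), an inhibitor of PI3 kinase, named here after its value was seen.

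Among the 3921 genes with both a symbol and a mean above 1 FPKM, those most like each member over the 30 libraries were listed by Pearson's r of log2(FPKM+1), as a description, since libraries of a dog are not independent. NR3C1 was most like ITGAL, BPTF and MGA, at 0.90 each. TSC22D3 was most like ZNF550 (0.88), TIGIT (0.87) and PTGDR (0.86). DUSP1 was most like STON2 (0.84), MGST1 and MAP3K19 (0.83 each), and ZBTB16 like JCAD (0.89), IL18RAP (0.88) and ZFHX3 (0.88). FKBP5 had no close partner, with CHIC2 at 0.67, CDADC1 at 0.61 and ASB3 at 0.60.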

How the data were processed

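The authors aligned single-end reads of 30 libraries from 15 dogs to CanFam3.1 with HISAT2 2.1.0 and assembled and quantified transcripts with StringTie 1.3.3. They deposited FPKM, scaled by transcript length and depth, and read counts per gene, unscaled, for 32704 Ensembl gene IDs. No read was aligned anew. Symbols were paired with gene IDs through the study's supplementary gene tables (5084 pairs used), which are sorted by p-value and shortened here, so that having a gene ID depended in part on results of these samples. The members and lists were chosen with earlier results of these data known. All 5 members with a gene ID are named; of the lists, genes past the threshold are named, and others are given as values or counts.

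The main test was limma 3.58.1 in R 4.3.3 (eBayes with trend) on log2(FPKM+1), run on the 14257 genes whose FPKM averaged above 1, with Benjamini-Hochberg adjustment over all of them, a threshold of 0.05 and the dog as block for changes over time. Fold changes on this scale understate the change of low genes. Labels shared 1 estimate of the spread. The study's own model for the change over time was DESeq2 with the donor as factor, run within each of its cluster groups. Here DESeq2 1.42.0 and edgeR 4.0.16 were run on the counts of 9 dogs. Correlations of changes used 100000 two-sided permutations (Python 3.11.15, NumPy 2.4.6) and were adjusted over 35 relations. Libraries were paired by dog number and, for dog 031_032, by elimination; deviations from the timepoint means correlated above 0.1 in 14 of 15 pairs (lowest -0.11 in dog 025, median 0.60), and 9 of 15 initial libraries correlated best with their own six-week library, dog 031_032 not among them. No 2 libraries were identical. Total counts limit low genes: ZBTB16 had 2 to 98 reads per library. Promoter sequences were not analysed here.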

Additional observations from a re-analysis of the deposited data

Results flagged for a closer look

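Within labels of 5 or 7 dogs, 30 sets of values were searched for a dog far from the others on the log2 scale, and 4 were found; chance flags about 1 in 20. Before treatment, dog 029 stood above the other B-Cell dogs in TSC22D3 (18.7 FPKM, beside 2.36 to 5.09) and in ZBTB16 (5.05 FPKM, beside 0.0327 to 0.231). The same dog had a T-cell score of 5.88 and a macrophage score of 4.62, above the other B-Cell dogs. Its B-cell score of 4.89 and its mitosis score of 3.76 were below theirs. The part of these scores in its TSC22D3 and ZBTB16 values was not tested. Untyped dog 031_032 stood above the other untyped dogs in initial ZBTB16 (0.786 FPKM, beside 0 to 0.164). Untyped dog 025 stood apart in the change of NR3C1 (1.24 on the log2 scale, beside -0.32 to 0.11), and its T-cell, neutrophil and macrophage scores rose by 3.60, 3.96 and 3.18.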

How the results depend on the processing

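Of 707 alternative values for single genes, 654 kept their direction and their side of the threshold, 44 changed sign and 9 newly passed. The 654 is no measure of robustness. Many values come from fits without 1 dog, and a dog of another label cannot move the estimate of a label's change. Since the members tested had not passed in the main fits, most values could only stay on that side or newly pass. The cause of the differences was not tested. Counts of genes past the threshold depended on the filter, the tool and the libraries. For the change over all dogs, 0 became 3054 with no filter, 3832 with DESeq2 and 1133 with DESeq2 for genes with a mean normalized count above 50 (added after the data were seen); without a filter, leaving out 1 dog gave 0 in 7 of 15 fits and 1435 to 3455 in the others. For the change in T-Cell dogs, 0 became 13 with a pseudocount of 0.1 and 1 with TPM, and the difference between T-Cell and B-Cell dogs had 4 with a pseudocount of 0.1. The 49 genes between T-Cell and B-Cell dogs at the initial timepoint became 6 with no filter, 106 with a mean FPKM above 5, 22 with TPM, 196 with median of ratios, 5 with the compared labels alone and 3446 without dogs 029 and 038; at 6 weeks 0 became 11 without these dogs. Leaving out 1 dog gave 1 to 2296 initially (1300 without dog 029, 2296 without 038, 1 without 028 or 036), 0 to 5 at 6 weeks, 0 to 1491 for the change in T-Cell dogs and 0 to 612 for the difference between these labels (both highest without dog 028), and 0 elsewhere.

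The fit without the replicate block called 0 genes over all dogs, and TSC22D3 kept 0.58 with an SE of 0.276 (limma adjusted p 1.0); leaving out the block changed no call. TPM moved the median change of all genes in T-Cell dogs from -0.09 to -0.32. NR3C1 over all dogs turned to 0.029 with DESeq2 under both filters, 0.0153 in the FPKM of 9 dogs, 0.00675 with median of ratios and 0.0672 without dogs 025, 033 and 036. FKBP5 over all dogs turned to -0.11 with the macrophage or neutrophil score, -0.14 with the mitosis, -0.26 with the NK and -0.0286 with the T-cell score as covariate, -0.0504 with TPM and -0.19 without dogs 025, 033 and 036. In B-Cell dogs, the mitosis score turned TSC22D3 to -0.0481 and FKBP5 to -0.15, and TPM turned FKBP5 to -0.0287. Between labels at 6 weeks, FKBP5 turned to 0.0569 with median of ratios and 0.65 without dogs 029 and 038, and DUSP1 to -0.13 without them. Leaving out 1 dog turned the sign within these ranges: over all dogs NR3C1 -0.10 to 0.11 and FKBP5 -0.0728 to 0.22; in B-Cell dogs DUSP1 -0.00294 to 0.15 and FKBP5 -0.00843 to 0.16; in T-Cell dogs FKBP5 -1.59 to 0.21; in untyped dogs NR3C1 -0.12 to 0.27; for the difference between T-Cell and B-Cell changes FKBP5 -1.66 to 0.14 and TSC22D3 -0.26 to 0.98; between labels initially FKBP5 -0.0144 to 0.95 and TSC22D3 -0.10 to 0.33, and at 6 weeks DUSP1 -0.18 to 0.99, FKBP5 -0.85 to 0.56 and TSC22D3 -0.20 to 0.90. Counts of 6 dogs could not be used, and 3 T-Cell dogs leave wide intervals.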
